A study of Drosophila melanogaster with 12 samples.

Results

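The regions described here were 563 peaks of open chromatin in the second legs of pupae of the *Drosophila melanogaster* strain OreR. They were selected on their own height and on the peak list of a second strain, eworo: a pileup of 60 or more at the summit (the number of tags stacked there) and no base shared with any eworo peak, on chromosomes 2L, 2R, 3L, 3R, 4 and X. They made up 2.51% (95% Wilson interval 2.32% to 2.73%) of the 22397 OreR peaks of that height and were drawn from 41814 OreR peaks in all. OreR stands for Oregon R, which has a small naked valley (the patch without trichomes on the posterior femur). The strain eworo has a large one and carries 3 mutant alleles, *ebony*4, the allele *white ocelli*1 and *rough*1. T2 legs were taken from pupae aged 20 to 28 hours after puparium formation (hAPF) and raised at 25 °C, from about 80 pupae per replicate, so each sample was a pool of animals and of all cell types of the leg. ATAC-Seq was made on 3 samples per strain and RNA-Seq on 3 libraries per strain, and the ATAC-Seq samples of a strain were merged into 1 peak list, so that a peak has no replicate value and no peak measure below was tested.

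ATAC-Seq marks DNA that the Tn5 transposase can reach, which in animal cells is mostly nucleosome-free DNA at promoters and enhancers. A peak is a place where more tags pile up than in the DNA around it, and a peak caller sets a threshold against that local background, so that the same signal can be listed in one sample and missed in another. A peak missing from a list is therefore not the same as closed chromatin. No sequence is given because none was in the sources used here.

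The pooled OreR reads held 193178857 tags, of which 56972082 were kept after 1 tag per position and strand was allowed, and the eworo reads held 170109980, of which 53862732 were kept. The lowest pileup listed was 41 in OreR and 39 in eworo, and a pileup could not pass 100. The pileups were not scaled between strains. Of the OreR peaks, 53.6% reached 60, against 49.5% of the 44260 eworo peaks. The other direction gave more peaks, with 754 of 21908 eworo peaks of pileup 60 or more (3.44%, 3.21% to 3.69%) absent from OreR. In the RNA-Seq, marker genes of epidermis summed to between 1375 and 1751 FPKM (fragments scaled to transcript length and library size) per library. Those of muscle summed to between 643 and 1225 and those of neurons and sensory organs to between 136 and 283. The ranges of the 2 strains overlapped for all 6 tissue lists. A marker that Cufflinks joined with other genes counts in these sums with the FPKM of the joined genes together.

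The share of OreR peaks absent from eworo fell steeply with height. Among OreR peaks of pileup 60 to 64, 5.94% (327 of 5503) had no eworo peak, and the share was 2.85% at 65 to 69, 1.2% at 70 to 74, 0.705% at 75 to 79 and 0.185% (6 of 3235) at 80 or more. Below the limit 25.5% of OreR peaks (4942 of 19417) were absent from eworo. At the edge itself nothing changed abruptly, with 85 of 1127 peaks absent at pileup 60 and 102 of 1209 at 59. The absent peaks at 60 had a median length of 78 bp and a median summit distance of 409 bp to eworo, and those at 59 had 81 bp and 482 bp.

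**Figure D1:**
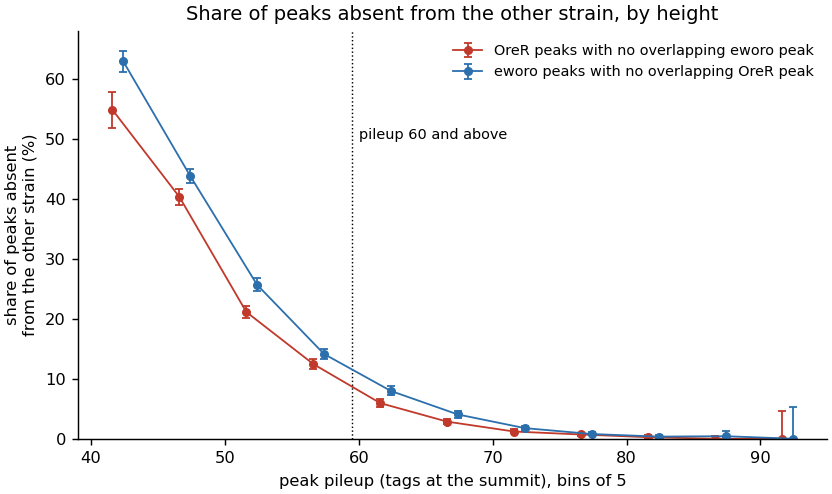
Share of the peaks of each strain that overlap no peak of the other (y axis, percent) by pileup at the summit in bins of 5 tags (x axis); points are shares, bars are 95% Wilson intervals for counting error only and the dotted line marks the limit of 60. The OreR share is 5.94% at 60 to 64 and 0.256% at 80 to 84, and the eworo share is 7.96% and 0.353% in the same bins.

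The peaks were short and rose little above their surroundings. Their median length was 82 bp (50 to 962 bp), against 209 bp for the 21834 OreR peaks of pileup 60 or more shared with eworo. Of the set, 64.3% (362 of 563) were 100 bp or shorter, against 9.89% of the shared ones. Only 25 of the 563 were longer than 300 bp. A short peak has fewer bases with which to meet an eworo peak, and the part of the rule in the short lengths was not tested. Other rules, which can keep peaks that overlap an eworo peak, gave a median of 109 bp (at least 50% of the OreR peak covered) or 171.5 bp (an eworo summit within 250 bp). The median pileup of the set was 63 (60 to 84), against 70 for the shared peaks, so the sets were not matched in height. The median enrichment, the pileup over the local background that MACS2 estimated, was 1.85-fold, against 2.43-fold, and the median -log10 of the q-value was 4.25, against 8.55. The high eworo peaks absent from OreR had much the same values, with a median length of 86 bp, a median enrichment of 1.84-fold and a median -log10 q of 4.18.

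The fold and the pileup of a peak give back its local background. Over the whole genome this background was 23.7 tags in OreR, which was also the lowest value that a peak could have. The 563 peaks had a median background of 33.5 tags, against 28.4 for the shared peaks of pileup 60 or more, whose median pileup was higher. Of the set, 33.7% (190) stood on a background of at least 1.5 times the genome level, against 12.1% of the shared ones. Among high eworo peaks absent from OreR the share was 51.2%, measured against the eworo genome level. Those 190 had a median enrichment of 1.69-fold, a median length of 72 bp and a summit in a protein-coding gene in 74.2% of cases. The 83 peaks at the genome level of background had other values, with a median enrichment of 2.59-fold, a median length of 114 bp, a median -log10 q of 8.92 and 34.9% in a protein-coding gene.

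**Figure D2:**
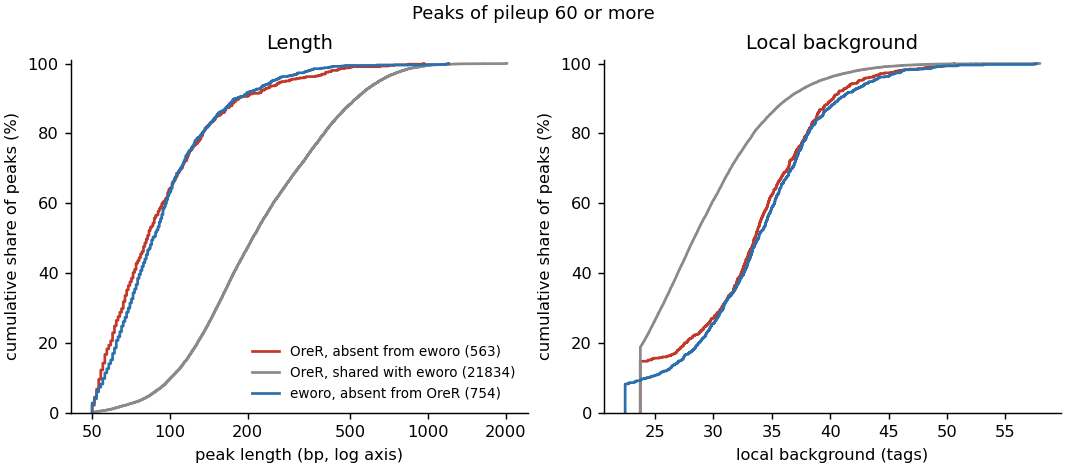
Cumulative share of peaks (y axes, percent) by length in bp on a log axis (left) and by local background in tags (right), for the 563 OreR peaks absent from eworo, the 21834 OreR peaks shared with eworo and the 754 eworo peaks absent from OreR, all of pileup 60 or more. Both absent sets lie to the left of the shared peaks in length (medians of 82 and 86 bp against 209 bp) and to the right in background (33.5 and 33.9 tags against 28.4).

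Most of the peaks lay next to an eworo peak. The median distance from summit to nearest eworo summit was 475 bp (54 to 317255 bp). Between the edges, 78 peaks were within 100 bp of an eworo peak, 253 within 250 bp and 336 (59.7%) within 500 bp. High eworo peaks absent from OreR were within 500 bp of an OreR peak in 62.9% of cases. OreR peaks under the limit and absent from eworo were that near an eworo peak in 47.1%. For 288 of those 336 the nearest eworo summit belonged to a peak that OreR shared, so that in these places OreR had the shared peak and a further, separate one. The next OreR peak was within 500 bp for 372 of them (66.1%), against 77.6% of shared high peaks. At the other end, 142 peaks were more than 1000 bp, 35 more than 5000 bp and 18 more than 10000 bp from any eworo peak.

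The 35 peaks more than 5000 bp away had other values than the rest, given here as a description. Their median enrichment was 2.59-fold, against 1.78-fold to 1.96-fold in the nearer groups, and their median background was 23.7 tags, against 32.2 to 35.6. Their summits lay in a protein-coding gene in 34.3% of cases, against 66.4% to 76.9% nearer by. Of the 35, 18 were on 2R, and 14 of those were in the first 5.2 Mb of the arm.

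**Figure D3:**
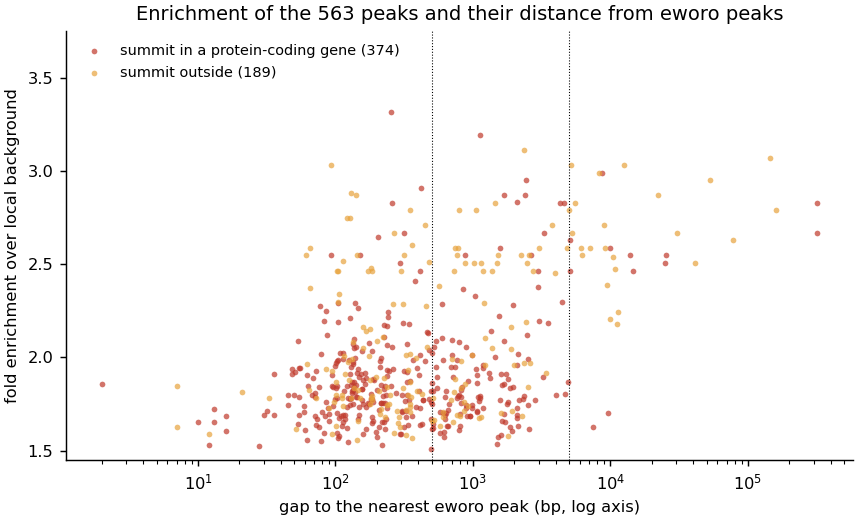
Enrichment over the local background (y axis, fold) of each of the 563 peaks by the gap in bp between its edge and the nearest eworo peak (x axis, log scale), coloured by whether the summit lies in a protein-coding gene; dotted lines mark 500 and 5000 bp. The 336 peaks within 500 bp sit mostly under 2-fold, and the 35 beyond 5000 bp have a median of 2.59-fold.

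The peaks were on all 6 chromosomes, at unequal shares of the high OreR peaks. Chromosome 2R held 160 of them (3.56% of its high peaks, 3.06% to 4.14%), 3R 136 (2.49%), 3L 110 (2.31%), 2L 99 (2.39%), X 54 (1.59%, 1.22% to 2.07%) and chromosome 4 only 4 (2.88%). X also had the lowest share of high eworo peaks absent from OreR, 2.75%. It alone had more high peaks in eworo (3672) than in OreR (3388). Of 136 windows of 1 Mb with a high OreR peak, 120 held at least 1 of the set, with a median of 4. The window with the most was X between 23 and 24 Mb, where 16 of 41 high OreR peaks (39.0%, 25.7% to 54.3%) had no eworo peak, while 1 of 24 high eworo peaks there was absent from OreR. Higher shares came from windows with few high peaks, such as 2R below 1 Mb with 5 of 9.

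Most peaks of the set were single, and a few came in stretches with no eworo peak between them. Alone between their flanking eworo peaks were 460 of them (81.7%), 38 stretches held 2, 7 held 3 and 1 held 6. The stretch of 6 lay on 2R from 5105671 to 5109681 (Release 6 coordinates), between *CG3107* and *gus* and in no protein-coding gene, inside 23394 bp without an eworo peak. Its members had pileups of 61 to 72 and enrichments of 2.18-fold to 2.54-fold, and 3 of the 5 longest peaks of the whole set were among them, at 835, 739 and 650 bp. On X, 3 stretches of 3 lay between 23333015 and 23390291, with pileups of 60 to 65, and the nearest gene, *ATbp*, was 224725 to 281934 bp away.

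A stretch of 3 lay in *Distal-less* (*Dll*), which encodes a homeodomain protein needed to form the distal leg. It ran from 24820942 to 24829574 on 2R, inside 21024 bp without an eworo peak. The 3 peaks were 98, 50 and 56 bp long, with pileups of 64, 71 and 70 and enrichments of 1.69-fold, 1.62-fold and 1.70-fold. An eworo peak of pileup 59 ended 958 bp before the first of them. No shared high peak had its summit in the gene. Other stretches of 3 were in *spg*, a guanine nucleotide exchange factor of the DOCK family (pileups 68, 65 and 64, 50 to 93 bp long), beside *mod(mdg4)*, which encodes BTB-domain chromatin proteins (65, 63 and 64, 153 to 423 bp), and in *CG11030* on 2L.

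The stretch in *CG11030* held the highest peak of the set. It ran from 5743813 to 5744531, with pileups of 68, 84 and 63 and lengths of 52, 400 and 81 bp. The peak of 84 had an enrichment of 2.14-fold and lay 466 bp from an eworo peak. The next highest was a peak of 65 bp on 3L with a pileup of 83, 16208 bp from *CheA75a*. Below it came a peak at *CHKov1* on 3R (81), one of 52 bp in *Syp*, an RNA-binding protein (81), and one each in *tara* (80) and in *Tlk*, a chromatin-linked kinase (80). The last 4 of the 10 highest had a pileup of 79, in *crp*, 29 bp from *Psi*, and as a pair of 446 and 260 bp on 3L, 4321 and 5128 bp from *Ids*. Enrichment was 1.70-fold for the peak of 83, 1.67-fold in *Syp*, 1.59-fold in *tara* and 1.57-fold in *Tlk*. Those values were under the median of the set, 1.85-fold, and the last 4 had 1.90-fold to 2.46-fold.

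The peak at *CHKov1* was the longest and the most enriched of all. It ran from 25328524 to 25329485 on 3R (962 bp), across one end of the gene at 25329316, with an enrichment of 3.31-fold and a -log10 q of 15.9 on a background at the genome level. OreR had a second peak just beyond it that overlapped an eworo peak of pileup 48, 255 bp from the long peak. A further peak of the set, named here after its values were seen, lay at 25331124 to 25331314 with a pileup of 63, 21 bp from *CHKov2*. The peaks farthest from any eworo summit were at 317255 and 316569 bp, both in *Pzl* on 3R, with pileups of 69 and 65 and enrichments of 2.83-fold and 2.67-fold.

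**Figure D4:**
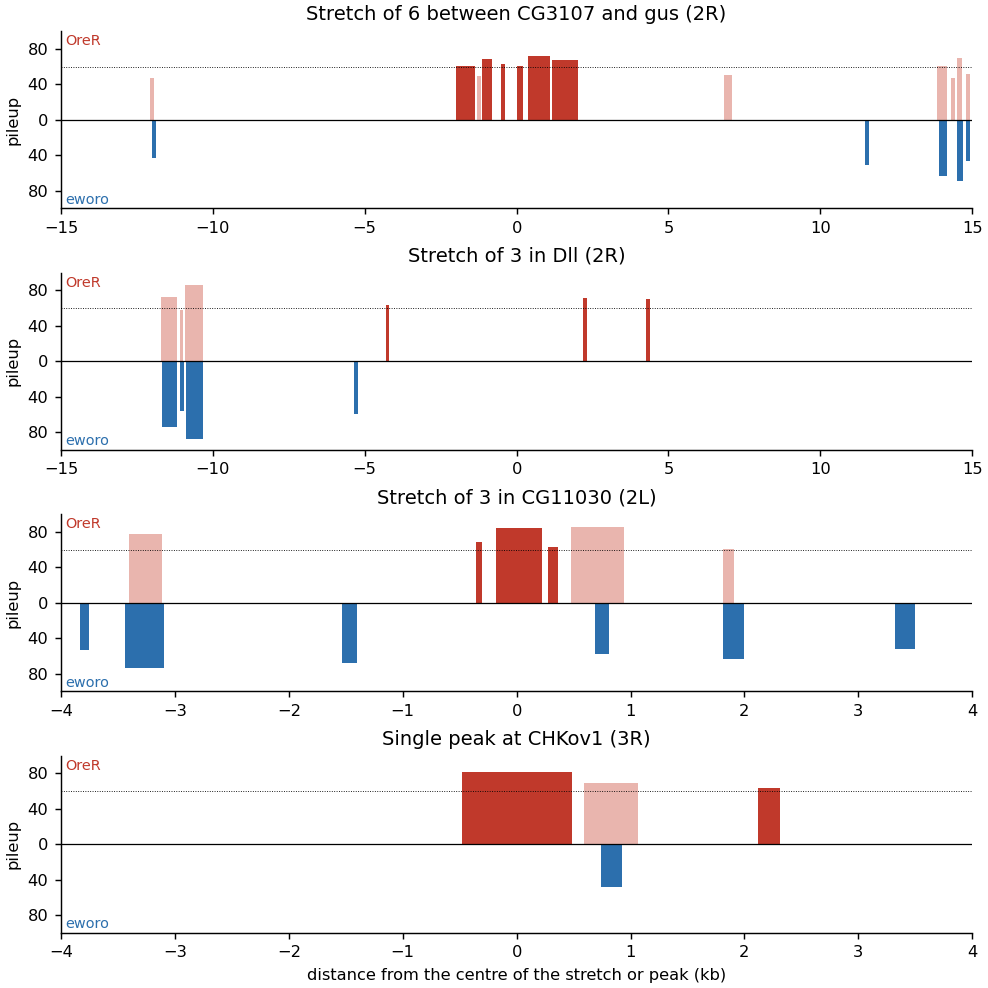
OreR peaks (upward bars) and eworo peaks (downward bars) around 4 places, with the pileup on the y axis and the distance in kb from the centre of the stretch or peak on the x axis; dark red bars are peaks of the set, light red bars other OreR peaks, and the dotted line is the limit of 60. Very narrow bars are drawn wider than the peak. No eworo peak lies under the 6 peaks between *CG3107* and *gus* or the 3 peaks in *Dll*, and the peak at *CHKov1* stands beside a shared one.

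Within genes the peaks lay mostly in long ones, but a long gene has more bases in which any peak can lie. The span of genes with shared high peaks was not computed, so the length is not shown to be particular to the set. By RefSeq gene spans, 374 summits (66.4%) lay in a protein-coding gene, against 62.5% of shared high peaks. Within 500 bp of a gene end lay 18.7%, against 42.2% of shared high peaks. This was not particular to the set: the share was 18.6% for high eworo peaks absent from OreR. It was 22.0% for OreR peaks under the limit absent from eworo. These 374 were in 312 genes with a median span of 20351 bp, against 2163 bp over all 13922 protein-coding genes, and 42 of the 312 held no shared high peak. *SKIP* held 6 of them over 162297 bp, and *ds*, which encodes the planar polarity cadherin Dachsous, held 5 over 74971 bp. *cpo*, an RNA-binding protein, and *CG34347* held 4 each. *Dll*, *Egfr* (the EGF receptor), *shn* (a transcription factor of Dpp signalling), *cv-2* (an extracellular BMP-binding protein), *sli* (a secreted guidance cue), *Sox14*, *crp*, *heph*, *spg*, *CG11030* and *DIP-lambda* held 3 each. *Egfr* and *shn* also held 20 and 25 shared high peaks.

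The Cuffdiff table of the study gives each gene a locus in which transcripts of neighbouring genes were often joined, and 424 summits (75.3%) lay in such a locus. Those loci named 895 genes, of which 876 could be matched to a symbol in the RNA-Seq libraries, and 253 of the 424 peaks lay in loci that named more than 1 gene. So a peak and a gene below share a locus and need not lie close together. In the next values a gene that Cufflinks joined with others carries the FPKM of the joined genes together, so they are not all values of single genes. Of the genes with a peak, 52.9% were above 1 FPKM in both strains, against 49.1% of all genes. Their median in OreR was 4.41 FPKM, against 1.75 over all genes. In eworo, whose list lacks the peaks, it was 5.77 FPKM, against 1.96 over all genes.

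Genes of leg patterning and of the signalling pathways had peaks of the set, as did genes of most other lists. Of 17100 genes with a locus, 5.12% had 1. Of those of 20000 bp or longer 16.1% had 1 (160 of 992), and of shorter genes 4.42%. In Wnt signalling 7 of 23 genes had a peak: the receptors *fz* and *fz2*, the co-receptor *arr*, the glypican *dlp*, the intracellular components *Apc* and *sgg* and the inhibitor *nkd*, and 6 of the 7 were 20000 bp or longer. In leg patterning 6 of 37 had one, namely *Dll*, *dac*, *bab1*, *bi*, *bowl* and *hh*, and 3 of the 6 were that long. In Notch signalling there were 3 of 20, the ligands *Dl* and *Ser* and the inhibitor *numb*, and in EGF signalling 2 of 20, *Egfr* and the kinase *Raf*. Of the genes listed upstream in the trichome network 5 of 16 had one (*Dl*, *Egfr*, *hh*, *jigr1* and *Ser*), 3 of them that long, and of the targets of *svb* 8 of 158 (5.06%), among them *pk* and *ImpE1*, with 1 that long. Of the genes with a known span, 9 of 23 in Wnt signalling and 16 of 36 in leg patterning were 20000 bp or longer. In the upstream trichome network 7 of 16 were, and of the *svb* targets 14 of 156. No list was tested, and these 6 lists had shared high peaks in 65% to 100% of their genes, against 52.7% of all genes with a locus. Of the other lists, actin genes of trichomes had 1 of 28 (3.57%), neurons and sensory organs 0 of 19 and cytochrome P450 2 of 32 (6.25%). The rest were markers of tracheae (28.6%), epidermis (14.3%), muscle (13.6%), fat body (10%) and haemocytes (7.69%), chitin and cuticle genes (10.3%) and trichome genes independent of *svb* (9.52%).

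RNA levels were compared between strains with limma on log2(FPKM + 1), 3 libraries against 3, a scale that understates the change of low genes. Over all 4848 entries (a gene, or genes that Cufflinks joined) 44 were higher in OreR, which is 0.908%, and 84 were higher in eworo, which is 1.73%, at an adjusted p under 0.05. Of the 264 entries that name a gene with a peak, 4 were higher in OreR (1.52%) and 4 higher in eworo (1.52%). Both shares were near those of all entries, so the counts are no result about the peaks as a group. An unadjusted p under 0.05 was found for 34 of them (12.9%), against 15.3% of all entries. Fewer cells of a type and less RNA per cell cannot be told apart in whole legs.

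**Figure D5:**
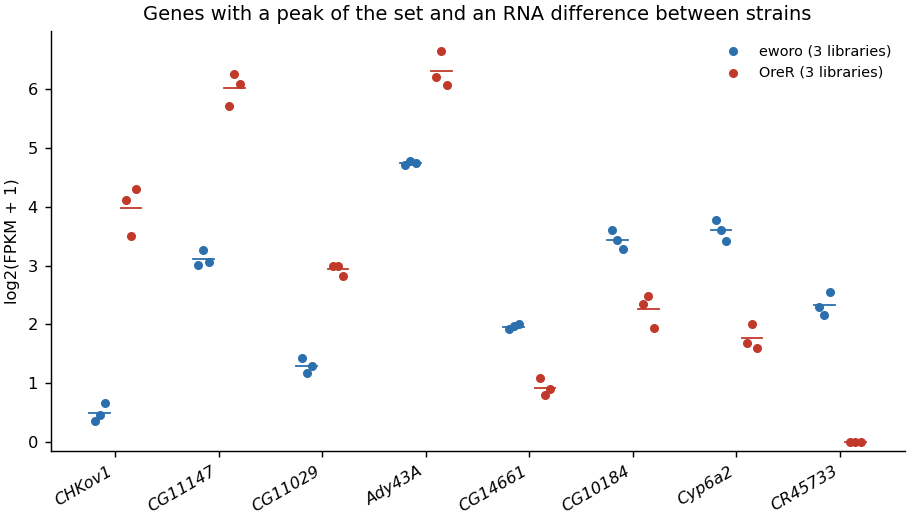
Expression as log2(FPKM + 1) (y axis) of the 8 genes that share a locus with a peak of the set and passed the test, in 3 eworo (blue) and 3 OreR (red) libraries; each point is a library and each line a mean. The libraries of the strains do not overlap for any of the 8, with the 4 genes on the left higher in OreR and the 4 on the right higher in eworo.

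*CHKov1*, a gene of a kinase-like family known for natural variants tied to resistance to insecticides and to a virus, was near the floor in eworo and expressed in OreR. It measured 0.286, 0.381 and 0.593 FPKM in the eworo libraries and 16.4, 10.4 and 18.7 FPKM in the OreR libraries. The groups were far apart, with a log2 difference of 3.47 ± 0.25 (SE, adjusted p = 0.00241 with limma). The call held in each of the 14 alternatives.

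*CG11147*, which encodes an ABC transporter, and *CG11029* share a locus with *CG11030* and its stretch of 3 peaks, which lies 2568 bp from the first and 1625 bp from the second. *CG11147* measured 7.07, 8.65 and 7.40 FPKM in eworo and 51.7, 75.4 and 67.0 in OreR, a log2 difference of 2.90 ± 0.17 (adjusted p = 0.00136 with limma). *CG11029* measured 1.68, 1.26 and 1.47 FPKM in eworo and 6.94, 6.998 and 6.06 in OreR, a log2 difference of 1.63 ± 0.14 (adjusted p = 0.00578). Both were higher in every OreR library. *CG11030* itself, which holds the stretch, had 13.8 to 14.9 FPKM in eworo and 17.3 to 21.1 in OreR, without overlap, and did not pass the test (log2 difference 0.36 ± 0.11, adjusted p = 0.223 with limma).

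*Ady43A* (current symbol *Adk3*), an adenosine kinase, shared its locus with 4 peaks, of pileup 62, 62, 76 and 77, of which that of 76 lay in the gene. Their enrichments were 2.09-fold, 1.76-fold, 1.51-fold and 1.53-fold, and that of the peak in the gene was the lowest of the whole set. *Ady43A* measured 25.1, 26.4 and 25.9 FPKM in eworo and 72.5, 99.4 and 66.4 in OreR (log2 difference 1.56 ± 0.17, adjusted p = 0.0131 with limma). Again the strains did not overlap, but the adjusted p was 0.0647 without eworo replicate 1, 0.0692 without eworo replicate 3 and 0.0505 without OreR replicate 1.

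The other 4 were higher in eworo, the strain without the peak. *Cyp6a2*, a cytochrome P450 known from insecticide resistance, measured 12.7, 11.1 and 9.74 FPKM in eworo and 2.22, 3.04 and 2.05 in OreR (log2 difference -1.83 ± 0.17, adjusted p = 0.00777 with limma). A peak of pileup 65 lay in the gene, which lies inside *Epac*, and was 45 bp from an eworo peak. The same locus held a further peak of pileup 61, in *Epac* but outside *Cyp6a2*, 171 bp from an eworo peak. The long non-coding RNA *CR45733* measured 3.92, 3.46 and 4.89 FPKM in eworo and was listed at 0 in all 3 OreR libraries (adjusted p = 0.00371), although the authors' pooled value for OreR is 1.25 FPKM. Its locus shared a peak of pileup 63 that lay 5011 bp from *fng*. *CG10184* measured 11.2, 9.81 and 8.78 FPKM in eworo and 4.10, 4.58 and 2.82 in OreR (log2 difference -1.19 ± 0.19, adjusted p = 0.0442 with limma), and its locus held a single peak of pileup 62, in the neighbouring *CG31145*. *CG14661* (current symbol *Jhbp3*), a gene of the juvenile hormone binding protein family, measured 2.77, 2.93 and 3.01 FPKM in eworo and 1.12, 0.736 and 0.872 in OreR (log2 difference -1.04 ± 0.16, adjusted p = 0.0413), with a peak of pileup 60 at 205 bp. *CG10184* and *CG14661* did not pass when any single library was left out, with adjusted p of 0.0681 to 0.175, nor with a pseudocount of 0.1 (0.0526 for both) or without the filter (0.0969 and 0.129).

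Of 44 listed genes with a peak, 22 had an entry of their own in the fit, and *Cyp6a2* alone of these was called. The other listed genes with a peak were not tested by themselves. *Dll* measured 71.6, 121 and 87.5 FPKM in eworo and 119, 81.8 and 137 in OreR, and the strains overlapped (log2 difference 0.27 ± 0.27, adjusted p = 0.608 with limma). *dac*, which patterns the middle of the leg and had 2 peaks, measured 63.7, 113 and 75.5 FPKM in eworo and 105, 114 and 128 in OreR (0.49 ± 0.23, adjusted p = 0.358). *Egfr* measured 62.8, 89.0 and 65.9 FPKM in eworo and 93.7, 95.2 and 96.9 in OreR, without overlap (0.40 ± 0.15, adjusted p = 0.301), and passed only without eworo replicate 2 (adjusted p = 0.0345). *Idgf6*, a chitinase-like protein, was lower in every OreR library, at 16.5, 15.2 and 12.2 FPKM, than in eworo, at 32.6, 22.6 and 23.9 (-0.81 ± 0.19, adjusted p = 0.125). *spg* was listed at 0 in 2 eworo libraries and at 2.98 FPKM in the other, against 7.20, 6.88 and 7.49 in OreR (adjusted p = 0.146), and passed without eworo replicate 1 (adjusted p = 0.00393).

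Over the 264 entries the median log2 difference, OreR minus eworo, was 0.14, against 0.01 over all entries, and 64.8% were positive, against 51.4%. This shift went with gene length and with 1 library. All 417 entries of 20000 bp or longer had a median of 0.28 and shorter ones of -0.02, and 33.8% of the entries with a peak were that long, against 9.66% of all. Without eworo replicate 1 the median of the 264 was 0.03 and that of all long entries 0.07. The part of the peaks in the shift was not tested.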

How the data were processed

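ATAC-Seq and RNA-Seq data of T2 legs were used as deposited. For the ATAC-Seq the authors aligned reads with Bowtie2, recentred them and called peaks on pooled reads per strain with MACS2 (2.1.1.20160309 per the file headers; q limit 0.01, extension 50 bp, no control). The deposited lists give the pileup at the summit, the fold enrichment over the local background and -log10 q. For the RNA-Seq the authors mapped stranded reads with TopHat2 (2.1.1) and deposited FPKM per library from Cufflinks (2.2.1), not scaled between libraries. The authors' own Cuffdiff comparison (fold changes and p-values) was not used, only its gene loci and pooled FPKM.

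Peaks counted as shared with 1 bp of overlap. The local background was read back as (pileup + 1) / fold - 1, which gave tags kept times 50 bp over the effective genome size as its lowest value. Entries named alike in all 6 libraries with a mean above 1 FPKM (4848 of 11903) were scaled by the median of ratios, and log2(FPKM + 1) was fitted by strain with limma 3.58.1 in R 4.3.3, with a trend in the variance and Benjamini-Hochberg adjustment over all entries. Other steps used Python 3.11.15, pandas 2.3.3, numpy 2.4.6, scipy 1.17.1 and matplotlib 3.10.9. The overlap and the fit were tested on simulated data. Nothing in the labels says that replicates were reared apart, so p-values measure the spread between these libraries. FPKM files give no counts, so the depth behind each RNA value is unknown. Wilson intervals cover counting error only.

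The peaks, the 16 gene lists and the tests were chosen with earlier results of these data known. Peaks named were the 10 highest, the 5 longest, the 5 farthest from an eworo summit and those in stretches of 3 or more. Genes named shared a locus with such a peak or with 2 or more peaks, were on a list, or passed the test. Gene positions are RefSeq spans on Release 6, without strand. Alternatives covered the pileup limit, the overlap, q limits, the pseudocount, the filter, the scaling, left-out libraries, a replicate block and the assignment of genes to peaks. Sequence content of the peaks was not analysed here.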

Additional observations from a re-analysis of the deposited data

How the results depend on the processing

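The number of peaks depended on the rule. With a pileup limit of 50 it was 2766 (median length 77 bp, median summit distance 567.5 bp), at 70 it was 89 (67.4% in a Cuffdiff locus) and at 80 it was 6 (77.5 bp, 399.5 bp, 100%). It was 485 where an eworo peak within 100 bp also counted (median distance 627 bp), 908 where at least 50% of the OreR peak had to be covered (109 bp, 245.5 bp) and 986 where an eworo summit within 250 bp decided (171.5 bp, 388 bp). Against only those eworo peaks of -log10 q 5 or more it was 2778 (113 bp, 787 bp to such a peak, 79.6% in a locus), and among OreR peaks of -log10 q 10 or more it was 35 (141 bp, 2579 bp, 54.3%). Without the first 5.2 Mb of 2R and X from 23 Mb, an alternative chosen after seeing the data, 78.8% of 528 peaks lay in a locus. Each rule keeps other peaks, and the cause of these shifts was not tested.

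For the RNA, a minimum of 5 FPKM gave 24 entries higher in OreR and 47 in eworo, and 1 entry with a peak higher in eworo. A pseudocount of 0.1 and no filter gave 2 each for the last, and no filter gave a median difference of 0.00 for the entries with a peak (0). Giving each gene the value of its entry called 70 in OreR. With RefSeq spans in place of loci, also added after seeing the data, 2 entries with a peak were higher in OreR and 1 in eworo, with a median of 0.24. Leaving out 1 library gave 23 to 60 entries higher in OreR and 37 to 93 in eworo, 3 to 10 with a peak higher in OreR (10 without eworo replicate 2), 2 in eworo each time, and a median of 0.034 to 0.197, lowest without eworo replicate 1. The replicate numbers did not pair the libraries (r of same-numbered pairs -0.04, -0.11 and 0.05). A replicate block gave 13 entries higher in OreR and 14 in eworo with limma, of which 2 and 0 had a peak (8 and 13 at an unadjusted p under 0.05). Under it *CHKov1* and *CG11147* passed, and *CG11029* (adjusted p = 0.138), *Ady43A* (0.11), *Cyp6a2* (0.11), *CR45733* (0.103), *CG10184* (0.197) and *CG14661* (0.309) did not. With each gene at the value of its entry *CG10184* (0.0896) and *CG14661* (0.143) did not pass either, nor did *CG10184* at a minimum of 5 FPKM (0.0856). The cause of these changes was not tested. No called difference of a named gene changed sign in these alternatives.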
